A study of Homo sapiens with 18 samples.

Results

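The nuclear lamins, the lamin B receptor and the high mobility group proteins HMGA and HMGB shape the nucleus and the fibre of chromatin inside it. Their transcripts were followed here through 9 genes, LMNA, LMNB1, LMNB2, LBR, HMGA1, HMGA2, HMGB1, HMGB2 and HMGB3, out of 26485 genes listed. The genes were chosen by symbol, with earlier results of these data in view: LMNB1 had already stood out for its increase with 1 of the PKR siRNAs. The values below therefore describe these genes. Calls and some counts use a p-value as a cut-off, but none is printed for a gene. The values are no independent evidence of a direction.

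PANC-1 is an established human pancreatic ductal adenocarcinoma cell line. PKR, encoded by EIF2AK2, is a serine-threonine kinase that is activated by double-stranded RNA and phosphorylates a translation initiation factor. Polyadenylated RNA was sequenced from 18 libraries in 6 groups of 3, to ask which transcripts move when PKR is lowered or blocked. The cells of the first run carried a control siRNA or either of 2 siRNAs against PKR (PKR siRNA 1, PKR siRNA 2), and those of the second run received the solvent DMSO, C16 at 400 nM or C16 at 800 nM, each for 72 h. C16 is a small-molecule inhibitor of PKR kinase activity. All groups are the same cell line, and the sources do not say whether the 3 libraries of a group came from separate cultures, so the spread among them may be partly technical. The siRNA and C16 libraries were normalized in separate tables, so each table was compared only within itself, and the run and the agent used cannot be told apart. Values are whole-culture RNA: fewer cells of a type and less RNA per cell cannot be told apart.

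The libraries held 1512940 to 1873906 reads on genes in the siRNA run and 894145 to 1474308 in the C16 run, and the 9 genes were counted with 63 to 2198 reads each per library. EIF2AK2, the siRNA target, had a normalized count of 97.4 ± 5.21 (SD, n = 3) under control siRNA, 11.1 ± 2.19 under PKR siRNA 1 and 8.65 ± 0.726 under PKR siRNA 2. Under C16, which acts on the protein, it stood at 49.8 ± 4.20 in DMSO, 42.5 ± 3.26 at 400 nM and 49.9 ± 1.38 at 800 nM. KRT7, KRT8, KRT18, KRT19 and the mesenchymal gene VIM, the 5 markers taken for PANC-1, summed to between 7004.1 and 15554.4 normalized counts in every library. The lowest group mean among these genes was 18.2 under control siRNA, 11.4 under PKR siRNA 1 and 4.64 under PKR siRNA 2. In the C16 run it was 3.78 in DMSO, 3.93 at 400 nM and 4.22 at 800 nM. PTPRC and CD3E were at 0 throughout, and the leukocyte, endothelial, fibroblast and acinar or islet sums reached at most 17.2, 1.07, 1.90 and 0.907.

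Lamins are the intermediate filaments that line the inner nuclear membrane. A-type lamins come from LMNA and B-type lamins from LMNB1 and LMNB2, while LBR tethers B-type lamins and peripheral heterochromatin to the membrane and also has sterol reductase activity. HMGA proteins bend AT-rich DNA through AT-hook motifs, are abundant in embryonic and tumour cells and can also be found in the heterochromatin foci of senescent cells, whereas HMGB proteins bend DNA through HMG boxes. Loss of lamin B1 and of HMGB2 from the nucleus is widely used as a mark of cellular senescence.

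HMGA2 is the textbook target of the let-7 microRNAs, which silence it in differentiated tissues, so the sequences of this pairing are shown before the values. The mature arms are from the RefSeq set, with the seed (bases 2 to 8) in capitals. Each of the 8 arms from let-7a to let-7i carries the same seed, GAGGUAG, and 3 of them are printed.
hsa-let-7a-5p: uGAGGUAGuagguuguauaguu
hsa-let-7d-5p: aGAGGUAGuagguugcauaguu
hsa-let-7i-5p: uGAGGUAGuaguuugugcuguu

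The match to that seed, CTACCTC, was searched on the sense strand of the 3′ UTRs of GENCODE release 44 (hg38), 1 transcript per gene. HMGA2 held 4 matches in 2999 bases. LBR and HMGA1 held 1 each, and the other 6 genes held 0. Of 19550 such UTRs, 9.76% held at least 1 match and 12 held as many as HMGA2 or more. The 4 HMGA2 sites, the LBR site and the HMGA1 site follow 5′ to 3′ with the match in capitals. MicroRNAs were not measured, and a match is a string of letters, not evidence of binding.
HMGA2, chr12:65963299-65963320, plus strand: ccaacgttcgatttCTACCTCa
HMGA2, chr12:65964534-65964555, plus strand: cccactactcaataCTACCTCt
HMGA2, chr12:65964946-65964967, plus strand: tgacttgcaaagacCTACCTCc
HMGA2, chr12:65965799-65965820, plus strand: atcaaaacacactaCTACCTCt
LBR, chr1:225402437-225402458, minus strand: tgaatttggctttgCTACCTCa
HMGA1, chr6:34245830-34245851, plus strand: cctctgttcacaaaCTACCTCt

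A gene is called below when limma, fitted on log2 (normalized count + 1) over all genes of a table, gave a Benjamini-Hochberg adjusted p under 0.05 and a change of more than 1.5-fold. All 9 genes passed the minimum mean of 10 in both tables, where 10593 genes (siRNA) and 9963 genes (C16) were tested. With PKR siRNA 1 against control siRNA, 2 of the 9 genes were called up (LMNB1, LBR) and 1 down (HMGA2), where 8.53% and 12.6% of all genes tested were called up and down. Their libraries did not overlap those of the control in 7 of the 9, against 51.7% of all genes. With PKR siRNA 2, LMNB1 was called up and 3 genes (LBR, HMGA1, HMGA2) down, against 10.8% and 12.8% of all genes. Here 8 of 9 did not overlap, against 54.3%.

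Between the siRNAs, none of the 9 genes was called higher and 5 (LMNA, LMNB1, LBR, HMGA1, HMGA2) were called lower under PKR siRNA 2 than under PKR siRNA 1. All genes tested gave 16.4% higher and 15.3% lower in that comparison, and 9 of 9 did not overlap, against 60.6%. C16 at 400 nM against DMSO called HMGA1 up and none down, with 7.08% and 5.45% of all genes called. There 7 of 9 did not overlap, against 39.6%. At 800 nM HMGA1 was called up and LMNB1 and HMGB2 down, with 11.6% and 14.1% of all genes called, and 7 of 9 did not overlap, against 51.8%. Between the doses none of the 9 was called in either direction, with 1.13% called up and 3.95% called down among all genes. In that comparison 4 of 9 did not overlap, against 30.4%. Without the fold, the limma fit passed 3 of the 9 between the doses at an adjusted p and 4 at an unadjusted p under 0.05. With the fold also required, edgeR and DESeq2 called 0, as limma did. Shares of all genes at a p cut-off alone are not given, here or for the lists below, so such counts are descriptions only.

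**Figure D1:**
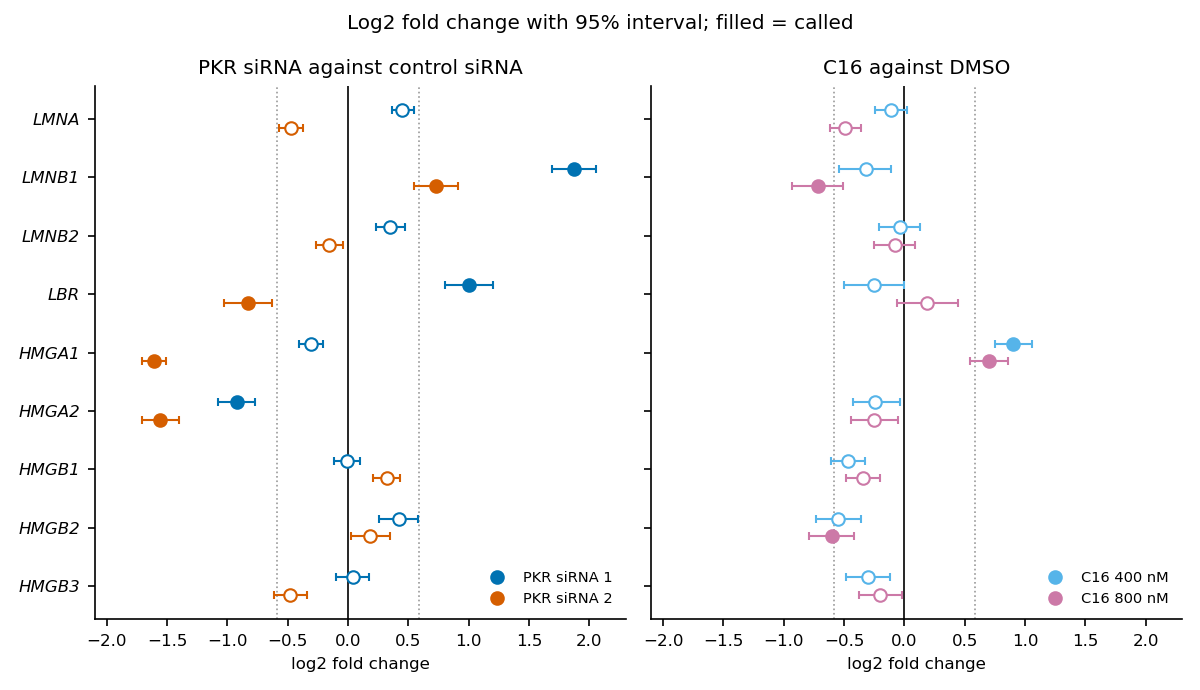
Log2 fold change (x axis) of each gene with its 95% interval, PKR siRNA against control siRNA on the left and C16 against DMSO on the right; filled points are called, open points are not, and the dotted lines mark 1.5-fold. LMNB1 lies at 1.87 and 0.73 with the siRNAs and at -0.32 and -0.72 with C16, and HMGA1 lies at -0.31 and -1.61 with the siRNAs and at 0.90 and 0.70 with C16.

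LMNB1 (chr5:126776623-126837020, plus strand) encodes lamin B1. Its normalized counts were 107, 105 and 96.7 under control siRNA, 388, 374 and 374 under PKR siRNA 1, and 164, 183 and 166 under PKR siRNA 2. Every PKR siRNA library lay above every control library, and the PKR siRNA 1 libraries lay above all others. LMNB1 rose by 1.87 on the log2 scale under PKR siRNA 1 (SE 0.09, 95% interval 1.69 to 2.05), which is 3.66-fold. With PKR siRNA 2 it rose by 0.73 (SE 0.09, 0.55 to 0.91), 1.66-fold, and the lower bound of that interval is under the 1.5-fold line. Under C16 the direction was the other: LMNB1 had 175, 172 and 183 normalized counts in DMSO, 153, 145 and 126 at 400 nM and 106, 111 and 104 at 800 nM. The 3 groups did not overlap and followed the dose in order. The decrease at 800 nM was called (-0.72, SE 0.11, interval -0.93 to -0.51). At 400 nM the value was -0.32 (SE 0.11, -0.54 to -0.11), under the fold asked for. The siRNA and C16 effects come from different tables, and the difference between them was not tested.

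LMNA (chr1:156082546-156140089, plus strand) gives lamin A and lamin C by alternative splicing, which gene counts cannot separate. It had 1269.2, 1264.4 and 1322.5 normalized counts under control siRNA, 1773.9, 1805.9 and 1706.9 under PKR siRNA 1, and 932, 893 and 961 under PKR siRNA 2. The 3 groups were apart, under PKR siRNA 1 above the control and PKR siRNA 2 below it. Neither value reached 1.5-fold against control siRNA (0.45, SE 0.05, and -0.47, SE 0.05), while PKR siRNA 2 against PKR siRNA 1 was called lower (-0.92, SE 0.05, interval -1.02 to -0.83). With DMSO and C16, LMNA had 859, 852 and 868 normalized counts in DMSO, 772, 840 and 783 at 400 nM, and 594, 641 and 601 at 800 nM. Each dose lay below DMSO and the 800 nM libraries below the 400 nM ones. The value at 800 nM was -0.49 (SE 0.06, -0.62 to -0.36), not called because it is 1.40-fold lower.

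LMNB2 (chr19:2428165-2456968, minus strand), the second B-type lamin, had the smallest log2 values of the 3 lamin genes. Its normalized counts were 585, 596 and 624 under control siRNA, 744, 766 and 796 under PKR siRNA 1, and 538, 537 and 545 under PKR siRNA 2. Those groups did not overlap, but the values, 0.35 (SE 0.06) and -0.16 (SE 0.06), were not called. In the C16 run the libraries mixed, at 364, 374 and 434 in DMSO, 342, 379 and 417 at 400 nM, and 418, 372 and 323 at 800 nM. The interval at 800 nM, -0.25 to 0.09, spans 0.

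LBR (chr1:225401502-225428855, minus strand) was the gene whose siRNA effects pointed in opposite directions with both called. Its normalized counts were 154, 128 and 174 under control siRNA, 289, 312 and 309 under PKR siRNA 1, and 82.6, 84.7 and 86.5 under PKR siRNA 2. The PKR siRNA 1 libraries were all above and the PKR siRNA 2 libraries all below the control, whose own 3 libraries were the most scattered (coefficient of variation 15.4%). LBR rose by 1.00 under PKR siRNA 1 (SE 0.10, 0.80 to 1.20) and fell under PKR siRNA 2 (-0.83, SE 0.10, -1.03 to -0.63). Compared directly, PKR siRNA 2 was 3.55-fold below PKR siRNA 1 (log2 -1.83, SE 0.10). DMSO gave LBR 102, 115 and 104 normalized counts, followed by 92.5, 72.6 and 107 at 400 nM and 109, 128 and 131 at 800 nM. Both doses overlapped DMSO, and neither value was called (-0.25, SE 0.13, and 0.19, SE 0.13). The 400 nM value was -0.10 without C16 400 nM replicate 2 and -0.38 without C16 400 nM replicate 3.

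**Figure D2:**
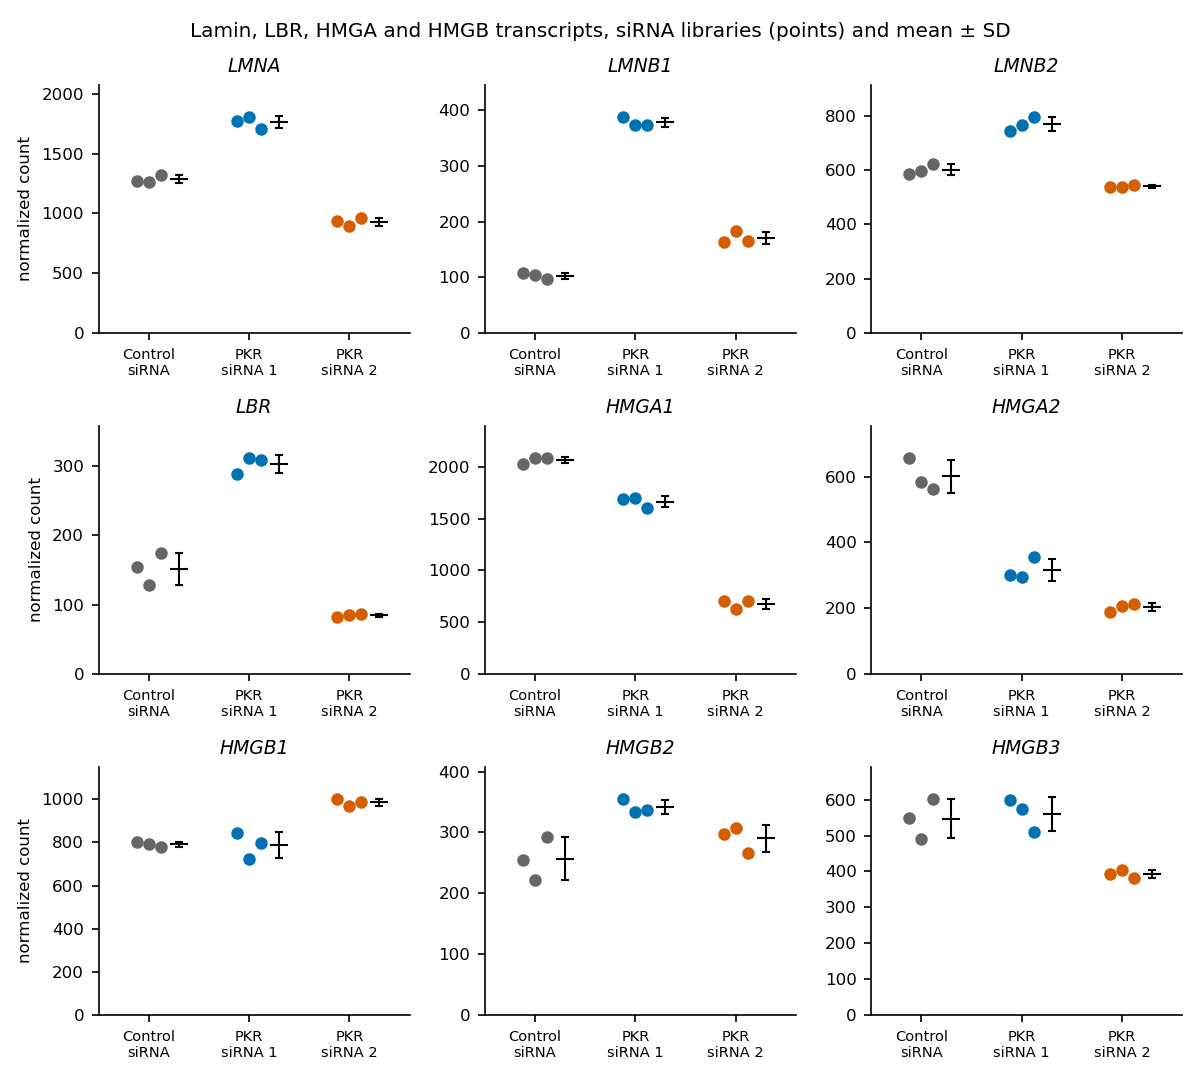
Normalized counts (y axis from 0, a scale per gene) in the 3 control siRNA, 3 PKR siRNA 1 and 3 PKR siRNA 2 libraries, as points with the group mean and SD beside them. The LBR libraries lie at 289 to 312 under PKR siRNA 1 and at 82.6 to 86.5 under PKR siRNA 2, on either side of the control, while LMNB1 is above the control with both.

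HMGA1 (chr6:34236800-34246231, plus strand) encodes the AT-hook proteins HMGA1a and HMGA1b, whose counts are joined here. With control siRNA it had 2029.1, 2085.2 and 2083.7 normalized counts, under PKR siRNA 1 1692.8, 1695.2 and 1604.6, and under PKR siRNA 2 701, 624 and 702. The 3 groups were apart, and the PKR siRNA 2 libraries were far below the rest. HMGA1 fell 3.06-fold under PKR siRNA 2 (log2 -1.61, SE 0.05, interval -1.71 to -1.51). With PKR siRNA 1 the value was -0.31 (SE 0.05, -0.41 to -0.21), not called, and the siRNAs differed by -1.30 (SE 0.05).

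HMGA1 moved upward under C16. Its normalized counts were 362, 354 and 465 in DMSO, 680, 804 and 717 at 400 nM, and 647, 590 and 674 at 800 nM. All 6 C16 libraries were above all 3 DMSO libraries, of which replicate 3 stood above the other two. HMGA1 rose by 0.90 at 400 nM (SE 0.08, 0.75 to 1.06) and by 0.70 at 800 nM (SE 0.08, 0.54 to 0.86). The 800 nM libraries lay just below the 400 nM libraries, a difference of -0.20 (SE 0.08, -0.36 to -0.05) that was not called.

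HMGA2 (chr12:65824460-65966291, plus strand) encodes the second AT-hook protein, normally restricted to embryonic and tumour cells. Its normalized counts were 657, 583 and 562 under control siRNA, 300, 296 and 355 under PKR siRNA 1, and 189, 207 and 214 under PKR siRNA 2. The control libraries were highest, PKR siRNA 1 next and PKR siRNA 2 lowest, with no overlap. HMGA2 was the only 1 of the 9 genes called down with each siRNA, at -0.92 (SE 0.08, -1.08 to -0.77) and -1.56 (SE 0.08, -1.71 to -1.40). The difference between the siRNAs, -0.63 (SE 0.08), was called, but leaving out PKR siRNA 1 replicate 3 (-0.55) or PKR siRNA 2 replicate 1 (-0.58) took it under 1.5-fold. In the C16 run HMGA2 had 184, 206 and 195 normalized counts in DMSO, 156, 163 and 177 at 400 nM and 173, 150 and 169 at 800 nM. Both doses lay below DMSO and overlapped each other, and neither value was called (-0.24, SE 0.10, and -0.25, SE 0.10).

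The span of HMGA2 overlaps that of 2 genes read on the other strand, LOC100129940 and RPSAP52, which share no exon bases with it. LOC100129940 had 6.95 ± 3.61 normalized counts (SD, n = 3) under control siRNA, 21.4 ± 3.49 under PKR siRNA 1 and 8.33 ± 0.330 under PKR siRNA 2, and RPSAP52 stayed at or below 3.33 in every library.

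Because the log2 values of LMNB1 and HMGA1 had opposite signs in every comparison with a control, RefSeq promoter windows (250 bases before to 50 after a start, GRCh38.p14) of both are printed, with 2 common promoter elements in capitals. The elements are the CCAAT box (CCAAT, or ATTGG on the other strand) and the GC box (GGGCGG, or CCGCCC), and neighbouring matches may share bases. The table held 2 windows for each of these genes, and the one with more matches is printed. It held 1 CCAAT and 4 GGGCGG matches for LMNB1 and 1 and 5 for HMGA1, while the other window held 0 and 0 for LMNB1 and 1 and 0 for HMGA1. Among 35116 promoter windows, 34.6% held a CCAAT match and 45.0% a GGGCGG match, so the elements are common to many genes and a match is a description only. Windows were found for 7 of the 9 genes.
LMNB1, chr5:126776886-126777185, plus strand: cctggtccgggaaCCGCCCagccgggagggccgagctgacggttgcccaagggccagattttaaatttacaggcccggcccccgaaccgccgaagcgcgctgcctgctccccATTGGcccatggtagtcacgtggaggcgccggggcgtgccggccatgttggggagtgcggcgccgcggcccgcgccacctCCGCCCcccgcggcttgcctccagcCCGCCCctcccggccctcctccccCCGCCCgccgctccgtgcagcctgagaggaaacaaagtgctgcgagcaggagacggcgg
HMGA1, chr6:34236623-34236922, plus strand: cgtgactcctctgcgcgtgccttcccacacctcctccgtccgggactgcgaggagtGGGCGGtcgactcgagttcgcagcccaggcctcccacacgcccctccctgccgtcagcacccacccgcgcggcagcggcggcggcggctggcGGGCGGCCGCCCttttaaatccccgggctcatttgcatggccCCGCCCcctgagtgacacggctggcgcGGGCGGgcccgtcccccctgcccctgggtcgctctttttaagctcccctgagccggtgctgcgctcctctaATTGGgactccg

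HMGB1 (chr13:30458741-30465944, minus strand) encodes an abundant DNA-bending protein that also acts as a danger signal once outside the cell. It had 802, 794 and 779 normalized counts under control siRNA, 845, 724 and 798 under PKR siRNA 1, and 1001.6, 971 and 986 under PKR siRNA 2. PKR siRNA 1 overlapped the control, with an interval of -0.12 to 0.10, and PKR siRNA 2 lay above it without reaching the fold (0.32, SE 0.06). In the C16 run HMGB1 had 869, 790 and 749 normalized counts in DMSO, 548, 626 and 560 at 400 nM and 626, 665 and 610 at 800 nM. All C16 libraries were below DMSO, and the doses overlapped. The values were -0.47 (SE 0.07, -0.61 to -0.33) and -0.34 (SE 0.07, -0.48 to -0.20), both short of 1.5-fold.

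HMGB2 (chr4:173331376-173334444, minus strand) encodes the paralog that is high in dividing cells. Its normalized counts were 255, 222 and 293 under control siRNA, 355, 333 and 337 under PKR siRNA 1, and 297, 308 and 266 under PKR siRNA 2. PKR siRNA 1 lay above the control and PKR siRNA 2 overlapped it, and neither was called (0.42, SE 0.08, and 0.18, SE 0.08). The PKR siRNA 2 value was 0.09 without control siRNA replicate 2 and 0.28 without control siRNA replicate 3. Its C16 series read 314, 283 and 307 in DMSO, 205, 224 and 189 at 400 nM and 182, 212 and 200 at 800 nM. Every C16 library lay below every DMSO library, and the doses overlapped each other. HMGB2 fell at 800 nM (-0.60, SE 0.09, -0.79 to -0.42), and at 400 nM the value was -0.55 (SE 0.09, -0.73 to -0.36). These values sit on the 1.5-fold line. The 800 nM call was lost without DMSO replicate 1 (-0.57) or C16 800 nM replicate 1 (-0.54). The 400 nM value was called without DMSO replicate 2 (-0.59) or C16 400 nM replicate 2 (-0.61). The dose difference was -0.06 (SE 0.09, -0.24 to 0.12).

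HMGB3 (chrX:150980508-150990775, plus strand), the X-linked paralog, had 549, 491 and 602 normalized counts under control siRNA, 600, 573 and 509 under PKR siRNA 1, and 392, 403 and 381 under PKR siRNA 2. PKR siRNA 1 overlapped the control (0.04, SE 0.07). PKR siRNA 2 lay below it, 1.39-fold lower and not called (-0.48, SE 0.07). Among the C16 libraries and their controls, HMGB3 had 245, 254 and 247 normalized counts in DMSO, 198, 224 and 186 at 400 nM and 213, 207 and 229 at 800 nM. Both doses lay below DMSO and overlapped each other, at -0.30 (SE 0.09) and -0.20 (SE 0.09), not called.

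HMGB1, HMGB3 and HMGA1 have many processed copies: 47, 29 and 7 pseudogenes in GENCODE release 44 carry their names. Of these, HMGA1P7 and HMGB3P1 were listed in the files, at no more than 0.940 and 0.972 normalized counts in any library. How reads that match several copies were counted is not given in the sources used here, so small differences of these 3 genes are uncertain.

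**Figure D3:**
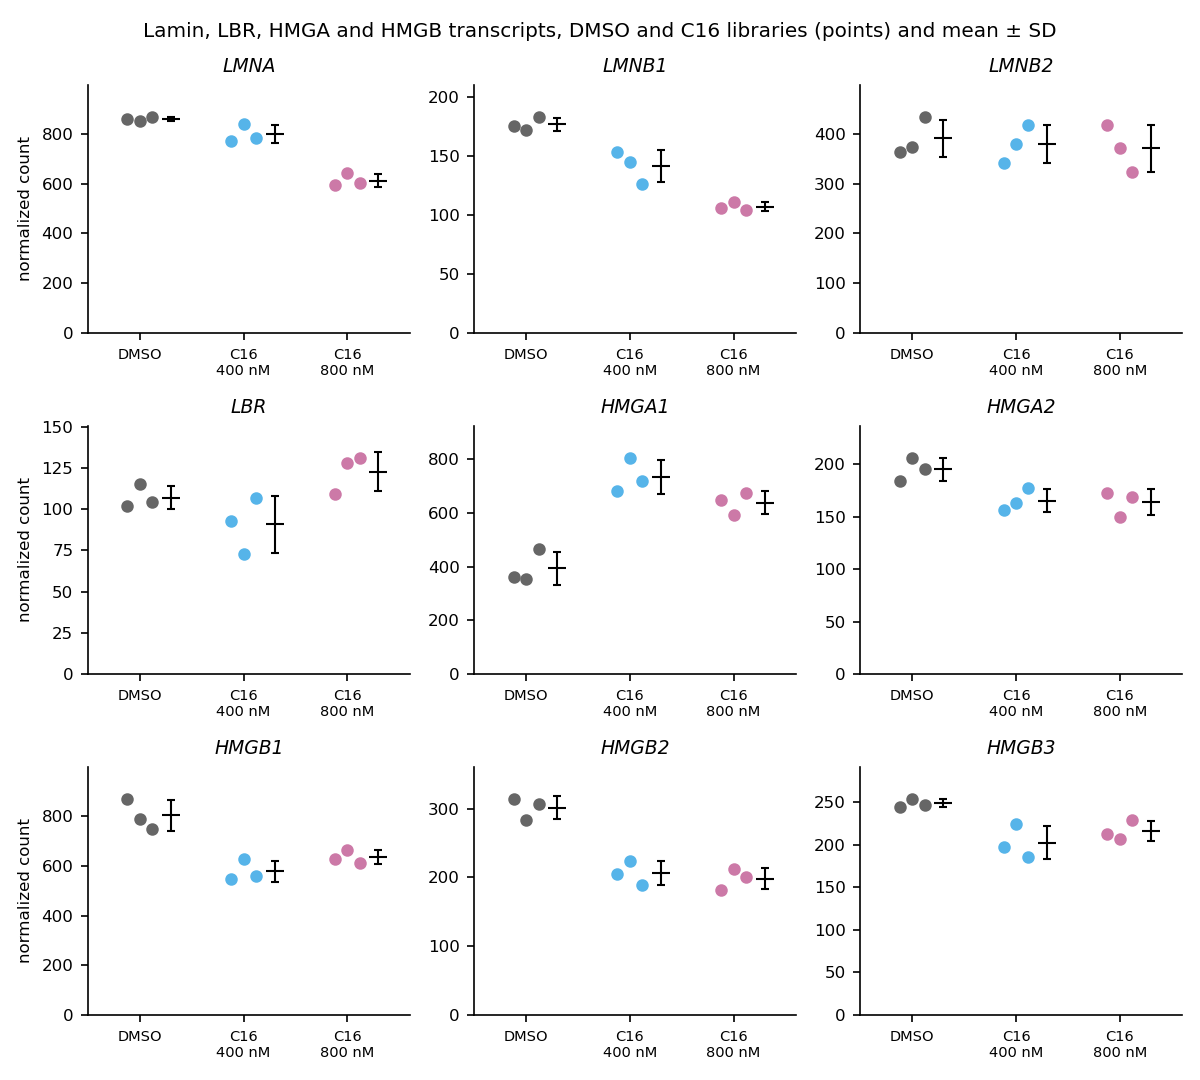
Normalized counts (y axis from 0, a scale per gene) in the 3 DMSO, 3 C16 400 nM and 3 C16 800 nM libraries, as points with the group mean and SD beside them. LMNB1 steps down from 172 to 183 in DMSO to 104 to 111 at 800 nM, HMGA1 lies above DMSO at both doses, and LMNB2 mixes across the groups.

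The balance between family members was read within each library as a log2 ratio of normalized counts, which no scaling of a library can alter. LMNB1 relative to LMNA was -3.64 ± 0.11 (SD, n = 3) under control siRNA, -2.22 ± 0.05 under PKR siRNA 1 and -2.44 ± 0.14 under PKR siRNA 2. Both PKR siRNA groups thus lay above the control without overlap, although LMNA itself lay on opposite sides of it. Under C16 the same ratio was -2.28 ± 0.03 in DMSO, -2.50 ± 0.16 at 400 nM and -2.52 ± 0.02 at 800 nM. Both doses lay below DMSO and overlapped each other.

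LMNB1 relative to LMNB2 stood at -2.55 ± 0.12 in the control siRNA libraries, at -1.02 ± 0.07 for PKR siRNA 1 and at -1.66 ± 0.09 for PKR siRNA 2, with all 3 groups apart. HMGA2 relative to HMGA1 was -1.78 ± 0.14, -2.40 ± 0.19 and -1.73 ± 0.15 in those groups. PKR siRNA 2, under which both genes fell, overlapped the control, and PKR siRNA 1 lay below it. Across the C16 run that ratio was -1.01 ± 0.24 in DMSO, -2.15 ± 0.14 at 400 nM and -1.96 ± 0.05 at 800 nM, with DMSO above both doses. HMGB3 relative to HMGB1 was -0.54 ± 0.16 under control siRNA, -0.49 ± 0.16 under PKR siRNA 1 and -1.33 ± 0.05 under PKR siRNA 2, the last group apart from the others. HMGB2 relative to HMGB1 was -1.63 ± 0.21, -1.21 ± 0.07 and -1.77 ± 0.12 in the same order, with PKR siRNA 1 above the other groups.

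**Figure D4:**
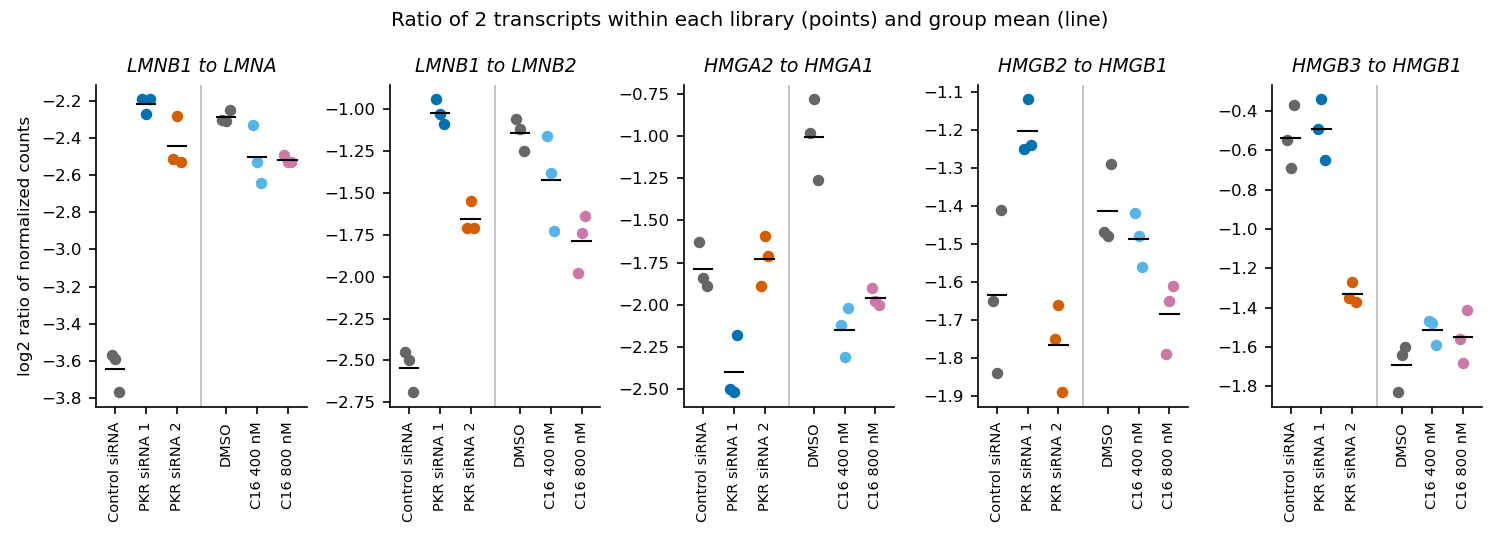
Log2 ratio of the normalized counts of 2 genes within each library (y axis, a scale per panel), with the group mean as a line; the siRNA and C16 libraries are separated by a grey line and were normalized separately. LMNB1 relative to LMNA is at -3.64 under control siRNA and at -2.22 and -2.44 under the PKR siRNAs.

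Levels of different genes were set side by side only per kilobase of exon. With control siRNA the order was HMGA1 (861 normalized counts per kb), LMNA (313), HMGB1 (231), HMGB2 (155), HMGB3 (140), LMNB2 (130), HMGA2 (117), LBR (38.3) and LMNB1 (30.2). The libraries of HMGB2, HMGB3, LMNB2 and HMGA2 overlapped from each gene to the next, and the other neighbours were apart. With PKR siRNA 1, LMNB1 moved from rank 9 to rank 7 and HMGA2 from rank 7 to rank 9. Under PKR siRNA 2, HMGB1 took rank 1 and HMGA1 rank 2, but their libraries overlapped (283 to 292 and 260 to 292 normalized counts per kb). In DMSO the order was HMGB1 (234), LMNA (209), HMGB2 (182), HMGA1 (164), LMNB2 (84.2), HMGB3 (63.5), LMNB1 (51.9), HMGA2 (38.0) and LBR (27.0), with overlap between HMGB2 and HMGA1. HMGA1 took rank 1 at 400 nM and at 800 nM of C16.

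Other genes of the nuclear envelope did not follow 1 direction. For this and the lists below, all genes tested gave 8.53% called up and 12.6% down under PKR siRNA 1, and 10.8% and 12.8% under PKR siRNA 2. C16 gave 7.08% and 5.45% at 400 nM and 11.6% and 14.1% at 800 nM. The median over all genes was -0.01 with each siRNA and 0.00 at each dose. Of 18 tested envelope genes besides the members, 0 were called up and 2 down under PKR siRNA 1 (median log2 fold change 0.01, against -0.01 over all genes). Those were SUN1, which links lamins to the cytoskeleton (172 against 460 normalized counts, log2 -1.41, SE 0.07), and NEMP1, an inner membrane protein (-1.28, SE 0.11). With PKR siRNA 2, 3 were called up and 1 down (median 0.08). The gene called down was TMPO, the lamina-associated polypeptide LAP2 (-1.08, SE 0.10), and the giant nesprin SYNE2 rose by 1.33 (SE 0.09). Of 17 tested in the C16 run, 0 were called at 400 nM (median -0.06) and 1 up and 1 down at 800 nM (median 0.00). The gene called down was SUN2 (37.3 against 86.5, -1.19, SE 0.15). These C16 counts moved with single libraries: 2 genes were called at 400 nM without DMSO replicate 2 or DMSO replicate 3 and 1 without C16 400 nM replicate 1, and 4 at 800 nM without DMSO replicate 2. At an unadjusted p under 0.05 without the fold, limma passed 8 of the 17 at 400 nM, with no share of all genes to set beside it. With the fold also required, edgeR and DESeq2 called 0 at 400 nM, as limma did.

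The enzymes that farnesylate and trim prelamin A gave 4 tested genes, of which 0 were called with either siRNA (medians -0.23 and 0.02) or at 400 nM (-0.16) by limma, edgeR or DESeq2, with 2 at an unadjusted p under 0.05 in each. Without control siRNA replicate 3 or PKR siRNA 2 replicate 2, 1 was called down under PKR siRNA 2. At 800 nM, ICMT, which methylates the farnesylated tail, was the 1 called (0.61, SE 0.09; list median 0.19), and that call was lost without DMSO replicate 2 or C16 800 nM replicate 1. Among 13 heterochromatin genes, which write or read the histone marks held at the lamina, 1 was called up and 1 down under PKR siRNA 1: SUV39H1, a histone H3 lysine methyltransferase (0.83, SE 0.14), and the chromatin remodeller ATRX (-0.69, SE 0.08). With PKR siRNA 2 only EHMT2, another such methyltransferase, was called (-0.75, SE 0.13), and 2 genes were called down without control siRNA replicate 3, PKR siRNA 2 replicate 1 or PKR siRNA 2 replicate 2. At 400 nM limma, edgeR and DESeq2 called 0 (5 at an unadjusted p under 0.05), and at 800 nM limma called 1, SUV39H2 (0.77, SE 0.24). That last count was 0 without DMSO replicate 1 and 2 without DMSO replicate 2 or DMSO replicate 3. The medians of the list over the 4 comparisons, in that order, were -0.01, -0.19, -0.05 and 0.03.

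Other HMG genes, among them the nucleosome-binding HMGN family, gave 2 called up and 0 down of 12 tested with each siRNA. HMGN1 was among them with both (0.73, SE 0.07, and 0.69, SE 0.07), beside HMGN4 (0.83, SE 0.10) under PKR siRNA 1 and HMGN2 (0.77, SE 0.06) under PKR siRNA 2. Of 13 tested with C16, 1 was called up and 1 down at 400 nM and 2 up and 4 down at 800 nM. HMGN2 was called down at both doses (602 in DMSO, 368 at 400 nM and 265 at 800 nM), with log2 values of -0.71 (SE 0.08) and -1.18 (SE 0.08), and HMGXB3 was called up at both (0.75 and 0.90, SE 0.11 each). The medians over the same 4 comparisons were -0.12, -0.07, -0.28 and -0.24. HMGN genes also have processed copies, so these values carry the same uncertainty.

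The let-7 axis besides HMGA2 comprises the let-7 blockers LIN28A and LIN28B, the processing enzyme DICER1 and other known targets. Of 9 tested genes, 0 were called up and 4 down under PKR siRNA 1 (median -0.31), where 12.6% of all genes were called down. PKR siRNA 2 gave 0 called up and 3 down (median -0.54), against 12.8% of all genes called down. LIN28B fell with both (40.9 normalized counts under control siRNA, 15.6 and 19.6 under the PKR siRNAs, log2 -1.35 and -1.04, SE 0.24 each), as did DICER1, which cuts pre-microRNAs (-0.67 and -0.97, SE 0.10 each). Of the let-7 targets, IGF2BP1 (-0.75, SE 0.08) and NRAS (-0.74, SE 0.09) were called down under PKR siRNA 1 and IGF2BP3 (-0.60, SE 0.09) under PKR siRNA 2. LIN28A and TRIM71 were under the minimum. With C16, limma, edgeR and DESeq2 called 0 of the 9 at either dose (medians 0.18 and 0.25), with 3 and 5 at an unadjusted p under 0.05, and 1 was called up at 400 nM without DMSO replicate 3.

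The receptors and partners of HMGB1 were mostly not measurable. Of 10 genes, AGER, TLR2, TLR4, TLR9, HAVCR2, CXCL12 and CXCR4 were under the minimum mean in both tables and THBD also in the C16 table. CD24 was called in opposite directions with the siRNAs: 128 normalized counts under control siRNA, 84.2 under PKR siRNA 1 (-0.60, SE 0.10) and 304 under PKR siRNA 2 (1.24, SE 0.10). Its PKR siRNA 1 value sits on the 1.5-fold line: the call was lost with a pseudocount of 5 and without control siRNA replicate 2, PKR siRNA 1 replicate 1 or PKR siRNA 1 replicate 2, which took the count of called genes from 2 to 1. It was also called down at 400 nM of C16 (-0.71, SE 0.14), a call lost without DMSO replicate 1, and 0 of 2 were called at 800 nM by limma, edgeR or DESeq2 (1 at an unadjusted p under 0.05). THBD, a thrombin receptor, was called up under PKR siRNA 1 at 29.2 against 7.82 normalized counts (1.89, SE 0.34). It had 7.98 under PKR siRNA 2, so it passed the minimum mean of 10 only through the PKR siRNA 1 libraries. With a minimum mean of 30 it was not tested, and 0 genes of the list were called up under PKR siRNA 1. The tested genes were CD24, XPO1 and, in the siRNA run only, THBD, with medians of -0.12, 0.15, -0.47 and -0.14 in the 4 comparisons.

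LMNB1, HMGB2 and the HMGA genes are linked to division, so 27 proliferation genes were counted beside them. With PKR siRNA 1, 3 were called up and 2 down (median 0.09), among them CDK2 (1.22, SE 0.12), PLK1 (0.86, SE 0.09) and the replication helicase subunit MCM6 (-0.79, SE 0.09). PKR siRNA 2 gave 0 called up and 6 down (median -0.43), among them CCNA2 (-0.97, SE 0.13), TOP2A (-0.88, SE 0.06) and CDK1 (-0.79, SE 0.10). Without control siRNA replicate 2 the count was 10, with 9 down. With C16, 4 were called up at 400 nM (median 0.16) and 7 at 800 nM (median 0.20) and 0 down at either, led by the G1/S cyclin gene CCNE2 (1.26 and 1.59, SE 0.18 each). The part of these genes in the values of the 9 genes was not tested.

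Genes of senescence and its secretory programme were counted as well. CDKN2A, CDKN2B, IL6, IL1A, IL1B, CXCL8, IGFBP5, IGFBP7 and MMP3 were under the minimum mean in both tables, and the rest gave 11 tested genes in the siRNA run and 8 in the C16 run. With PKR siRNA 1, 0 were called up and 4 down (median -0.35), among them GDF15, a stress-induced cytokine (-1.61, SE 0.08), and the collagenase MMP1 (-1.91, SE 0.27). PKR siRNA 2 gave 3 called up and 3 down (median -0.42). CDKN1A, which encodes the cell cycle inhibitor p21, rose by 1.25 there (SE 0.14), and PLAU, encoding urokinase, fell (-1.85, SE 0.06). With C16, 5 were called up and 0 down at 400 nM (median 0.72) and 3 up and 1 down at 800 nM (median 0.41), with GDF15 (2.05 and 1.56, SE 0.10 each) and PLAU (1.64 and 1.54, SE 0.08 each) up at both doses. The list holds both inducers of arrest and secreted proteases and does not measure senescence itself.

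**Figure D5:**
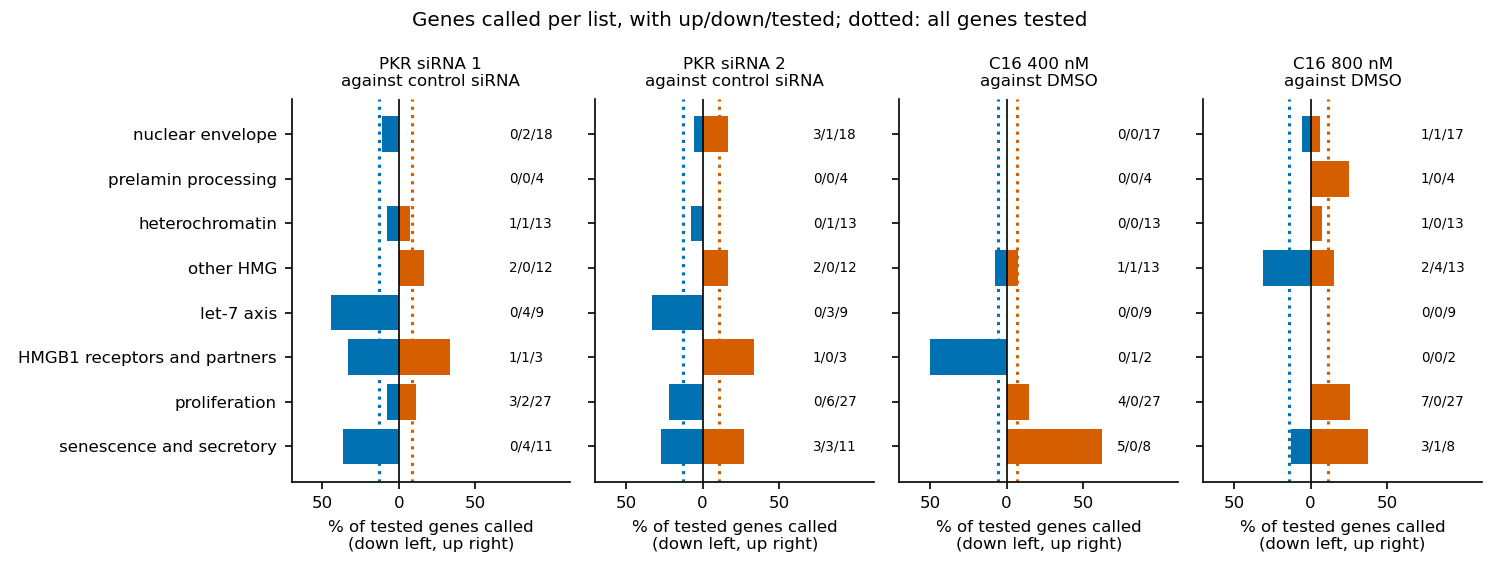
Percent of the tested genes of each list called up (right) and called down (left) in the 4 comparisons with a control, with up, down and tested counts at the right of each panel; dotted lines give the percent of all genes tested. The let-7 list has 4 and 3 of 9 genes called down with the siRNAs and 0 called with C16.

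The genes whose fold changes were most like those of LMNB1, HMGA2 and HMGB2 were found by the sum of absolute differences over the 4 comparisons with a control, over 5276 genes whose mean reached 50 in both tables. For LMNB1 the nearest was CTNNB1, encoding beta-catenin, at a summed difference of 1.21 (log2 values 1.20, 1.19, -0.40 and -0.71), then FLOT1 and RAVER1 at 1.41 each, so no gene lay close to it. For HMGA2 the nearest were MMP2, a gelatinase (-1.04, -1.51, -0.11 and -0.16), and TM4SF1, each at 0.37, and KIAA1522 at 0.49. For HMGB2 they were TOP2B, a DNA topoisomerase (0.32, 0.19, -0.50 and -0.57), at 0.18, INO80, a chromatin remodeller, at 0.22 and TRMT112 at 0.25. Comparisons within a table share their control libraries, so this likeness is a description of the same 18 libraries.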

How the data were processed

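PANC-1 polyadenylated RNA was sequenced by the authors as 75-base paired-end reads, aligned to hg38 with TopHat, counted per gene with featureCounts and normalized with TCC. The deposited values are TMM-normalized counts (a signal per gene), 1 table for the 9 siRNA libraries and 1 for the 9 C16 libraries. The gene annotation, the strand setting and the treatment of multiply mapped reads are not given in the sources used here. The 2 tables were never merged. All 18 value columns were assigned to samples by name.

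In each library the deposited values were whole multiples of 1 read in 100.0% of genes within 0.01 of a read, which gave the read numbers used for depth and for count tests. The test was limma 3.58.1 (R 4.3.3) with a mean-variance trend on log2 (value + 1), 9 libraries of a table in 1 fit, genes with a mean of at least 10, Benjamini-Hochberg adjustment, and calls at an adjusted p under 0.05 with more than 1.5-fold change. Fold changes are on the log2 (value + 1) scale. Intervals are 95% intervals of that fit.

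Each value was recomputed with 0.5 or 5 added in place of 1, without the minimum or with a minimum of 30, after rescaling by medians of ratios, with other groups dropped from the fit, and with replicate number as a block. The recovered reads were tested with edgeR 4.0.16 (quasi-likelihood) and with DESeq2 1.42.0, and single libraries were omitted in turn. Replicate libraries of a group differed by more than sampling noise in 18 of 18 pairs (chi-square per degree of freedom 1.03 to 1.63), so none was treated as a duplicate. No source says that replicate numbers mark shared cultures.

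The 9 genes and the 8 gene lists (nuclear envelope, prelamin processing, heterochromatin, other HMG, let-7 axis, HMGB1 receptors and partners, proliferation, senescence and secretory) were chosen with earlier results of these data known. Text names the 9 genes, EIF2AK2, XPO1, cell type markers and up to 4 called genes of a list per comparison with the largest change. It also names genes under the minimum, listed copies and overlapping partners of the 9 genes, and the 3 genes most like LMNB1, HMGA2 and HMGB2. Promoters and microRNAs are from RefSeq and 3′ UTRs from GENCODE release 44. H2AZ1 was matched as H2AFZ.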

Additional observations from a re-analysis of the deposited data

How the results depend on the processing

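Of 972 refitted log2 fold changes of the 9 genes, 947 kept their direction and stayed called or not called. The adjusted p alone crossed 0.05 in some of these, such as LMNB2 under PKR siRNA 2 with DESeq2. The 120 group ratios recomputed kept their sign, but they had no threshold. Every library ratio was below 0, so leaving out a library could not change a sign. The number of the 9 genes called was the same under every alternative that kept all libraries, with the replicate block at 3, 4, 5, 1, 3 and 0 (PKR siRNA 1, PKR siRNA 2, the siRNAs against each other, C16 400 nM, C16 800 nM, the doses). No pairing by replicate number was detected: same-numbered deviations correlated at -0.0269 to 0.0324 (siRNA) and -0.0491 to 0.0169 (C16). Differently numbered ones correlated at -0.0373 to 0.0289 (siRNA) and -0.0511 to 0.0503 (C16). Leaving out 1 library gave 3 to 3, 4 to 4, 4 to 5, 1 to 2, 2 to 3 and 0 to 0. The 400 nM count was 2 without DMSO replicate 2 or C16 400 nM replicate 2. Signs turned only for values near 0. HMGB1 under PKR siRNA 1 became 0.00 under rescaling, edgeR, DESeq2 or without control siRNA replicate 1, and ranged from -0.06 to 0.05 (without PKR siRNA 1 replicate 2) when 1 library was left out. HMGB3 under PKR siRNA 1 ranged from -0.04 to 0.11, with -0.01 without PKR siRNA 1 replicate 1. LMNB2 ranged from -0.11 to 0.04 at 400 nM (0.03 without C16 400 nM replicate 1), from -0.17 to 0.02 at 800 nM, and from -0.13 to 0.06 between the doses (0.03 without C16 400 nM replicate 3). Between the doses HMGA2 became 0.01 under rescaling, edgeR and DESeq2 and ranged from -0.05 to 0.05 (0.04 without C16 400 nM replicate 3), and HMGB2 ranged from -0.12 to 0.00. The cause was not tested. Counts in the lists moved by more than 1.5 times in 38 of 864 alternatives, 29 of them by 1 gene and none by more than 4. Over all genes, DESeq2 called 51 up and 137 down between the doses, against 113 and 394 by limma. A minimum mean of 30, which tests fewer genes, gave 473 up and 296 down at 400 nM (705 and 543 at the minimum of 10), 818 and 800 at 800 nM (1158 and 1403) and 82 and 231 between the doses. Depth limits LBR, LMNB1 and the C16 run most, with the fewest reads per library.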
